A study of Mus musculus with 2 samples.

Results

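The genes described here encode 10 peptide hormones of the pituitary, the hypothalamus and the parathyroid: Gh, Prl, Pomc, Tshb, Fshb, Lhb, Cga, Avp, Oxt and Pth. They were taken by symbol, whatever their values, and all 10 have a row among the 23997 gene rows. RNA was measured in medullary thymic epithelial cells (mTECs) sorted from thymus for high surface MHC class II, in C57BL/6 mice. There was 1 library labelled Aire-KO (genotype Aire-/-) and 1 library labelled WT, each from pooled mice. The sources used here do not give the number, age or sex of the mice or the Aire allele.

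Medullary thymic epithelial cells copy into RNA many genes that belong to other organs, and display the products to developing T cells so that self-reactive clones are removed. Aire is the nuclear regulator behind much of this display, and people who lack it develop autoimmunity against endocrine glands, the parathyroid among them. In their own organs the hormones studied here are made by a handful of specialised cells: pituitary cells for Gh, Prl, Pomc, Tshb, Fshb, Lhb and Cga, hypothalamic neurons for Avp and Oxt, and parathyroid chief cells for Pth.

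Levels are FPKM, fragments scaled to transcript length and library total, so they can be set side by side between genes. Ratios are log2 of Aire-KO over WT after adding 0.1 FPKM to each, and this shrinks the ratios of low genes. A gene is called lower or higher here if it differs 2-fold on that scale and has a mean of 0.5 FPKM or more. It is no test, because 1 library per genotype leaves no spread between replicates to test against. Intervals (95%) cover counting error only, from fragment numbers estimated from the values. Fewer cells of a type and less RNA per cell cannot be told apart in such bulk samples.

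The libraries were alike in depth, at an estimated 54200000 fragments for the Aire-KO-labelled library and 47800000 for the WT-labelled library. The transcript of Aire itself stood at 640.2 FPKM in the Aire-KO-labelled library and 220.6 FPKM in the WT-labelled library. With the allele not given, the genotype cannot be checked from this level, and genotypes are given as labelled. The epithelial and antigen presentation genes that define these cells were present in both libraries: of 13 such markers, 12 passed neither limit, and Aire was the exception. Of all 15906 genes at the minimum, 3260 were lower (20.5%) and 1128 higher (7.09%), and the median log2 ratio was 0.05.

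Stretches of DNA just before the starts of the hormone genes and a stretch of shared coding sequence are shown for the genes the results turn on: Lhb and Cga encode partner subunits of the same hormone yet differed in opposite directions, and Oxt and Avp are close neighbours and relatives that differed alike. Each promoter stretch is the 200 bases before the RefSeq start (GRCm38.p6), read 5′ to 3′ on the gene's own strand. Capitals mark TATAAA, the classic TATA box, and TGACCTTG, a core that the orphan receptor made by Nr5a1 is known to bind.
Lhb, chr7:45420746-45420945, plus strand: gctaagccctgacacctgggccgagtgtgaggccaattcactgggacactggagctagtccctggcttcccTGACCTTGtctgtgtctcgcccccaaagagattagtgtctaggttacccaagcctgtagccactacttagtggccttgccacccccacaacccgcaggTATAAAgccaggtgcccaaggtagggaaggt
Cga, chr4:34893579-34893778, plus strand: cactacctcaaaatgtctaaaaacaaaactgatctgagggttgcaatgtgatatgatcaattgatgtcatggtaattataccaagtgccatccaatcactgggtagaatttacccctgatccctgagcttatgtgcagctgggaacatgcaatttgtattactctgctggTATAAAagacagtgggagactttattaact
Oxt, chr2:130575969-130576168, plus strand: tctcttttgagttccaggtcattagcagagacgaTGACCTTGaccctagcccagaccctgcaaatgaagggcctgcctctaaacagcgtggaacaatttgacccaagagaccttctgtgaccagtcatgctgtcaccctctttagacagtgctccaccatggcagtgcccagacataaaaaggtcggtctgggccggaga
Avp, chr2:130582589-130582788, minus strand: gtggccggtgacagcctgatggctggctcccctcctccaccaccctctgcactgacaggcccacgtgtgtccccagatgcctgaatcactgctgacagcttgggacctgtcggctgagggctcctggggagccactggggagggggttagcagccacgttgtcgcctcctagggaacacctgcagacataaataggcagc

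The set of RefSeq promoters used here held such a window for 9 of the 10 genes, all but Gh. TATAAA (reverse complement TTTATA, either strand) lay in 6 of the 9 windows, those of Cga, Fshb, Lhb, Pomc, Prl and Tshb, against 9.96% of 32851 promoter windows. Counted only on the gene's own strand and 40 to 20 bases before the start, it lay in the same 6, against 1.99% of all windows. In Prl the matches on opposite strands overlap. TGACCTTG (reverse complement CAAGGTCA, either strand) lay in 2 windows, 129 bases before the start of Lhb and 166 before that of Oxt, against 0.992% of all windows. The windows of Avp and Pth held no match to these letters, and for Avp the RefSeq start lies 47 bases outside the interval in the deposited table. These matches describe letters, not binding.

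The transcripts of Avp and Oxt share a run of 127 identical bases inside their coding sequences, in the part that encodes the neurophysin carrier domain. It covers the last 2 bases of exon 1 and 125 bases of exon 2, which for Oxt are chr2:130576591-130576715 (plus strand) and for Avp chr2:130581133-130581257 (minus strand, GRCm38).
Avp and Oxt: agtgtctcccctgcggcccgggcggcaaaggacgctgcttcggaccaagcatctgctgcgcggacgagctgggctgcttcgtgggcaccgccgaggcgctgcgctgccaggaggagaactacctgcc
Fragments that fall wholly inside this run cannot be assigned to either gene by sequence.

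Of the 10 hormone genes, 8 had a mean of 0.5 FPKM or more. Oxt, Pth, Avp, Pomc, Cga and Tshb were lower in the Aire-KO-labelled library, Lhb was higher and Gh was neither. That is 6 lower and 1 higher of 8, beside 20.5% lower and 7.09% higher of all genes, and 1 higher of 8 is near the share of all genes. Oxt, Pth and Avp reached the minimum through the WT-labelled library alone, so they had to come out lower, and the count of 6 says little by itself. Summed over all 10, the level was 28.5 FPKM in the Aire-KO-labelled library and 179.0 FPKM in the WT-labelled library. Prl and Fshb lay under the minimum.

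**Figure D1:**
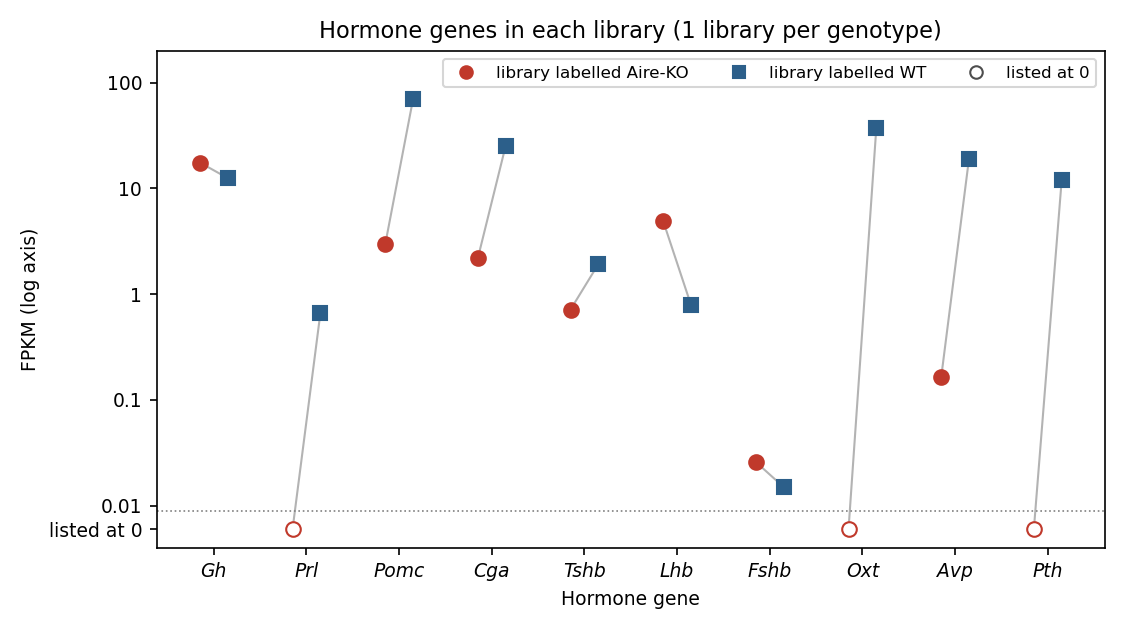
FPKM (log axis) of the 10 hormone genes, with the Aire-KO-labelled library as red circles left of the WT-labelled library as blue squares, 1 library each. Open symbols below the dotted line are genes listed at 0: Prl, Oxt and Pth in the Aire-KO-labelled library. Gh, Lhb and Fshb are the genes whose circle is above the square, and for Fshb these are 2 and 1 estimated fragments.

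The order of levels differed between the libraries. In the Aire-KO-labelled library, Gh led at 17.5 FPKM, followed by Lhb, Pomc, Cga, Tshb, Avp and Fshb, and the other three were listed at 0. In that order Pomc and Cga overlapped in their counting intervals (2.47 to 3.48 and 1.68 to 2.81 FPKM), as did Tshb and Avp (0.405 to 1.19 and 0.0339 to 0.480 FPKM), and Avp and Fshb (0.00314 to 0.0936 FPKM). In the WT-labelled library the order was Pomc, Oxt, Cga, Avp, Gh, Pth, Tshb, Lhb, Prl and Fshb. There Gh (11.3 to 13.8 FPKM) and Pth (10.6 to 13.3 FPKM) overlapped, as did Tshb (1.36 to 2.66 FPKM) with Lhb (0.419 to 1.42 FPKM), and Lhb with Prl (0.415 to 1.0 FPKM). The leading gene of the WT-labelled library, Pomc, was thus behind Gh and Lhb in the Aire-KO-labelled library.

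Oxytocin and vasopressin, the nonapeptides that hypothalamic neurons release from the posterior pituitary to drive milk ejection and labour and to retain water, were both far lower. Oxt (chromosome 2, 130576169 to 130577053, mm10) was listed at 0 in the Aire-KO-labelled library, against 37.4 FPKM, about 609 fragments, in the WT-labelled library. At this depth a count of 0 allows up to 0.15 FPKM of Oxt (3 fragments). Being at 0 from such a level was uncommon: of 7092 genes at 10 FPKM or more in the WT-labelled library, 30 (0.423%) were listed at 0 in the Aire-KO-labelled library.

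Avp (chromosome 2, 130580677 to 130582541) stood at 0.164 FPKM in the Aire-KO-labelled library and 19.0 FPKM in the WT-labelled library. That is 3 estimated fragments against 280, a log2 ratio of FPKM without a pseudocount of -6.86 (counting interval -9.15 to -5.30). Whether any of those 3 fragments lay in the run shared with Oxt is not recorded in the tables. The genes lie 3623 bases apart and face each other, and the genes on either side of the pair did not share their direction. Mrps26, a mitochondrial ribosomal protein gene before Oxt, stood at 41.8 FPKM in the Aire-KO-labelled library and 37.6 FPKM in the WT-labelled library, and Fastkd5, a mitochondrial RNA-processing gene after Avp, at 4.69 and 3.10 FPKM in the same order of libraries.

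Parathyroid hormone, which raises blood calcium by acting on bone and kidney, was likewise listed at 0. Pth (chromosome 7, 113385576 to 113388573) had 0 FPKM in the Aire-KO-labelled library, where 0 fragments allow up to 0.101 FPKM, and 11.9 FPKM, about 294 fragments, in the WT-labelled library. The parathyroid genes listed for comparison did not all do the same. Gcm2, the transcription factor that specifies the parathyroid, was listed at 0 in the Aire-KO-labelled library and stood at 0.454 FPKM in the WT-labelled library. Casr, the calcium-sensing receptor through which chief cells read blood calcium, stood at 7.23 and 8.12 FPKM in the Aire-KO-labelled and WT-labelled libraries, and Gata3 was lower at 1.76 against 4.09 FPKM. In the WT-labelled library, Pth was therefore present at 11.9 FPKM beside Gcm2 at under 0.5 FPKM. Whether any parathyroid cells were in the sort was not tested.

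Pomc encodes the precursor of the stress hormone ACTH, of the melanocortins that set skin pigment and appetite, and of beta-endorphin. It was the most abundant of these hormone transcripts in the WT-labelled library. Pomc (chromosome 12, 3954945 to 3960643) stood at 2.95 FPKM in the Aire-KO-labelled library, about 134 fragments, and 69.4 FPKM in the WT-labelled library, about 2658 fragments. The log2 ratio was -4.51 with the pseudocount, and -4.56 (-4.82 to -4.31) without. Its level lay at percentile 54.3 of all gene rows in the Aire-KO-labelled library and at percentile 94.6 in the WT-labelled library. Among the 5271 genes whose mean lay between 10 and 50 FPKM, as those of Pomc, Cga, Oxt and Gh do, 9.32% were lower and 6.32% higher by the same rule.

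The enzymes that cut Pomc into hormones were lower too, but were low in both libraries. Pcsk1, the convertase that releases ACTH, stood at 0.535 FPKM in the Aire-KO-labelled library and 2.15 FPKM in the WT-labelled library. Pcsk2, which cuts further to the melanocortins, stood at 0.186 and 1.83 FPKM in the Aire-KO-labelled and WT-labelled libraries. Tbx19, the T-box factor that switches on Pomc in corticotropes, was listed at 0 in the Aire-KO-labelled library and at 0.545 FPKM in the WT-labelled library, so it lay under the minimum.

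Thyrotropin, follitropin and lutropin share the alpha subunit made by Cga, and each is completed by its own beta subunit from Tshb, Fshb or Lhb. These subunits did not all differ in the same direction: Cga and Tshb were lower, Lhb was higher and Fshb lay under the minimum. Cga (chromosome 4, 34893779 to 34907374) stood at 2.20 FPKM in the Aire-KO-labelled library, about 62 fragments, and 25.3 FPKM in the WT-labelled library, about 594 fragments, with a log2 ratio of -3.47 (without a pseudocount -3.53, interval -3.93 to -3.15). The beta subunits summed to 5.64 FPKM in the Aire-KO-labelled library and 2.73 FPKM in the WT-labelled library. That sum was higher through Lhb (4.90 against 0.791 FPKM), whose measurement has a limit given below, whereas Tshb was lower (0.715 against 1.92 FPKM). GENCODE M21 also places Platr9, a noncoding gene on the opposite strand, over 1251 bases of the Cga interval. Cga was 0.389 times the sum of its 3 beta partners in the Aire-KO-labelled library and 9.27 times in the WT-labelled library.

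Lhb, the beta subunit of the hormone that triggers ovulation and testosterone synthesis, was higher. Lhb (chromosome 7, 45420946 to 45421854) stood at 4.90 FPKM in the Aire-KO-labelled library, about 90 fragments, and 0.791 FPKM in the WT-labelled library, about 12 fragments. The log2 ratio was 2.49, and 2.63 without a pseudocount (1.72 to 3.6). Among 5418 genes whose mean lay between 2 and 10 FPKM, 20.4% were lower and 7.24% higher by the rule, and 16 genes (0.295%) had the ratio of Lhb or a higher value. Regulators known to act on Lhb in pituitary gonadotropes did not share its direction by the rule: Egr1, an immediate early factor, stood at 355.9 and 281.7 FPKM in the Aire-KO-labelled and WT-labelled libraries, and Nr5a1 was lower, at 0.120 against 1.32 FPKM.

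The measurement of Lhb has a limit. In the deposited intervals, 43 bases separate Lhb from Ruvbl2, a gene for a chromatin and helicase cofactor that runs towards it on the opposite strand. In GENCODE M21 the Ruvbl2 gene reaches 95 bases into the interval of Lhb. Ruvbl2 stood at 50.2 FPKM in the Aire-KO-labelled library and 34.1 FPKM in the WT-labelled library. The library kit keeps strand, but the sources used here do not say whether the authors' counting used it, and the part of Ruvbl2 reads in the value of Lhb was not tested.

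Tshb, the beta subunit of thyrotropin, the pituitary signal to the thyroid, was modestly lower. Tshb (chromosome 3, 102777398 to 102782714) stood at 0.715 FPKM in the Aire-KO-labelled library, about 15 fragments, and 1.92 FPKM in the WT-labelled library, about 37 fragments. Its log2 ratio was -1.31 (without a pseudocount -1.43, interval -2.38 to -0.51), and of the 3295 genes whose mean lay between 0.5 and 2 FPKM 44.2% were lower by the same rule and 7.65% higher, so Tshb did not stand apart from genes of its level. It no longer passed the rule at a pseudocount of 1 FPKM. GENCODE M21 places its whole interval inside the gene of Tspan2 on the opposite strand, which itself stood at 3.58 FPKM in the Aire-KO-labelled library and 4.43 FPKM in the WT-labelled library.

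Fshb, the beta subunit of follitropin, which drives ovarian follicles and sperm formation, was close to absent from both libraries. Fshb (chromosome 2, 107056141 to 107059651) stood at 0.0259 FPKM in the Aire-KO-labelled library and 0.0150 FPKM in the WT-labelled library. These rest on 2 and 1 estimated fragments, and the interval of their log2 ratio ran from -3.47 to 6.67, so no difference was detectable at this depth.

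Growth hormone and prolactin are sister hormones from related pituitary cells, somatotropes and lactotropes, and both depend there on the factor Pou1f1. Their transcripts differed from each other in mTECs. Gh (chromosome 11, 106300261 to 106301896), the driver of body growth, stood at 17.5 FPKM in the Aire-KO-labelled library, about 697 fragments, and 12.5 FPKM in the WT-labelled library, about 421 fragments. Its log2 ratio of 0.48 (without a pseudocount 0.49, interval 0.31 to 0.67) lay above 0 beyond counting error but inside the 2-fold limit. Of the hormone genes above 10 FPKM in the WT-labelled library, which were Pomc, Oxt, Cga, Avp, Gh and Pth, Gh alone was not lower. Choosing genes by their WT-labelled level favours those that come out lower. The share lower over all genes chosen that way was not taken, so this is a description only.

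Prl (chromosome 13, 27057570 to 27065203), the driver of milk production, was listed at 0 in the Aire-KO-labelled library, where 0 fragments allow up to 0.0763 FPKM, and stood at 0.658 FPKM, about 22 fragments, in the WT-labelled library. Its mean lay under the minimum, and GENCODE M21 places an antisense gene, Gm47888, over 453 bases of its interval. Pou1f1 was also listed at 0 in the Aire-KO-labelled library, against 1.47 FPKM in the WT-labelled library. The Gh transcript was therefore at 17.5 FPKM in a library where its pituitary activator was listed at 0. The nearest gene row after Gh, 9444 bases away, was Cd79b, a B cell receptor chain, at 37.8 FPKM in the Aire-KO-labelled library and 37.1 FPKM in the WT-labelled library. Its partner chain Cd79a stood at 0.0957 and 2.13 FPKM in the same order, and the B cell marker Ms4a1 at 1.19 FPKM in the Aire-KO-labelled library and 1.60 FPKM in the WT-labelled library.

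**Figure D2:**
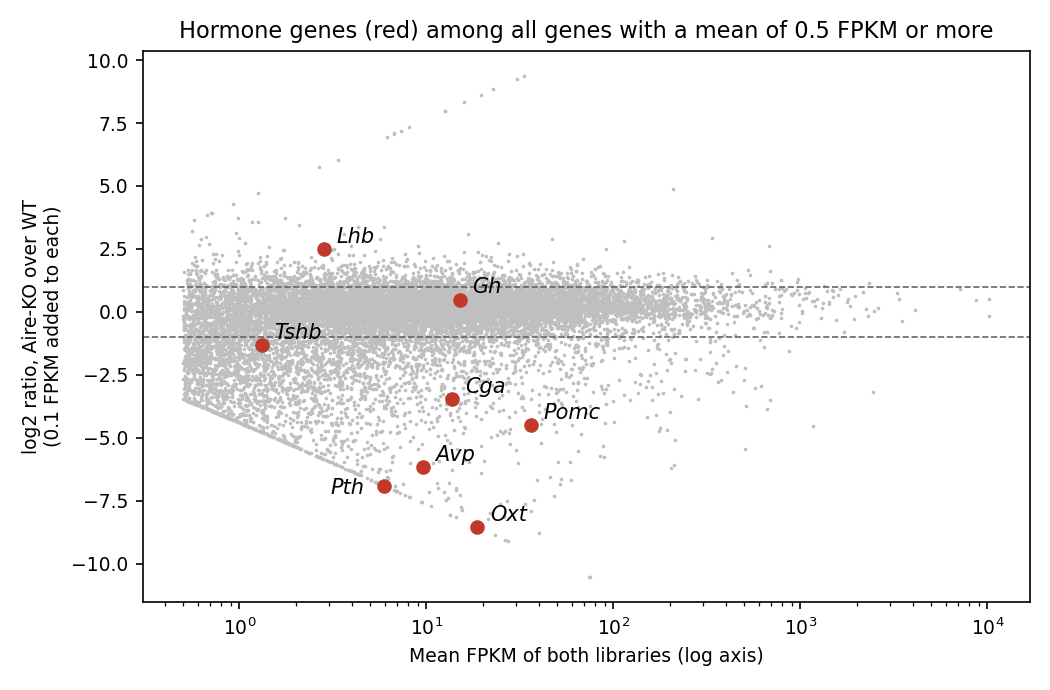
Log2 ratio of Aire-KO over WT (0.1 FPKM added to each) against the mean FPKM of both libraries (log axis) for the 15906 genes at 0.5 FPKM or more, in grey, with the 8 hormone genes at the minimum in red and the 2-fold limits dashed. Oxt and Pth lie on the lower edge, where genes are listed at 0 in the Aire-KO-labelled library, Gh lies between the limits and Lhb above them.

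For Oxt and for Pth the authors' deposited table held a q of 0.0155, and it called both. In the authors' deposited table the other 8 hormone genes were not called, with q of 0.133 for Prl, 0.586 for Cga, 0.708 for Avp, 0.759 for Pomc, 0.762 for Lhb, 0.916 for Fshb, 0.943 for Tshb and 0.999 for Gh. The authors' deposited table called 70 of 20473 rows with status OK (0.342%). These q-values compare a pair of libraries, not genotypes.

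Transcript variants could be followed for Pomc and Tshb, and in both the leading RefSeq transcript differed between the libraries. For Pomc, NM_008895 carried 61.6% of the gene in the Aire-KO-labelled library and 39.4% in the WT-labelled library, and NM_001278584 made up 38.4% and 57.4% in the same order. Both were lower as transcripts, NM_008895 at 1.82 against 27.3 FPKM and NM_001278584 at 1.13 against 39.8 FPKM. For Tshb, NM_001165940 carried practically all of the gene in the Aire-KO-labelled library (0.715 FPKM) and 7.16% in the WT-labelled library (0.138 FPKM), whereas NM_009432 was listed at 0 in the Aire-KO-labelled library and made up 92.8% in the WT-labelled library (1.78 FPKM). The Tshb values rest on about 15 and 37 fragments in all, and the error of splitting fragments between overlapping transcripts was not measured. The other 7 genes with a single transcript row, and Prl, whose second row was listed at 0 in both libraries, allow no such comparison.

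**Figure D3:**
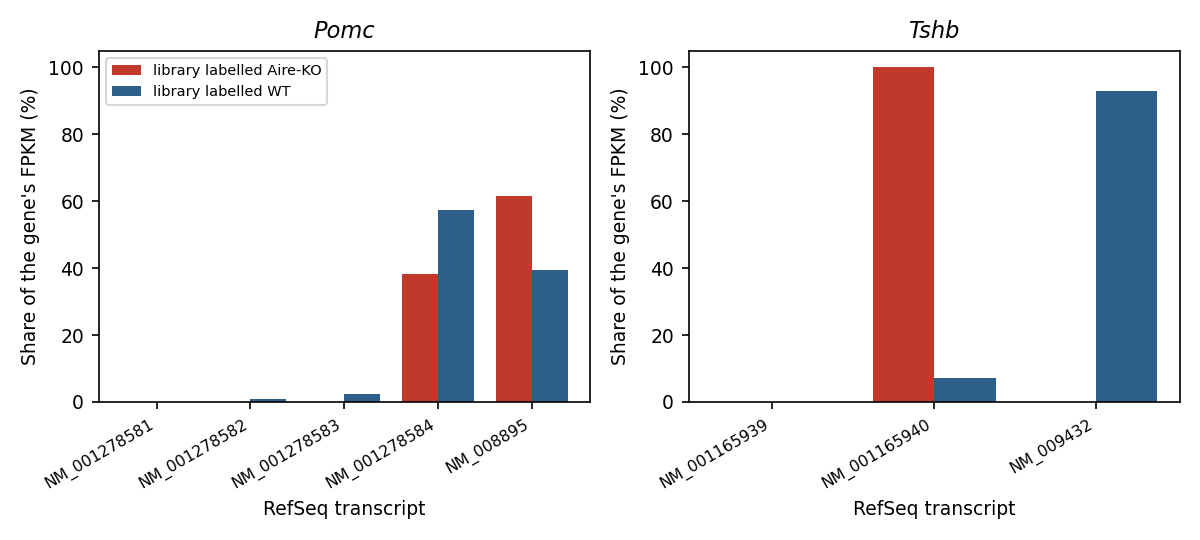
Share of the gene's FPKM (%) carried by each RefSeq transcript of Pomc and Tshb, with the Aire-KO-labelled library in red left of the WT-labelled library in blue. The leading transcript of Pomc is NM_008895 (61.6%) in the Aire-KO-labelled library and NM_001278584 (57.4%) in the WT-labelled library, and that of Tshb is NM_001165940 in the Aire-KO-labelled library and NM_009432 (92.8%) in the WT-labelled library.

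Few of the genes next to the hormone genes passed the 2-fold rule. Taking the 2 nearest gene rows on each side, 36 further genes surrounded the 10, and 25 of these reached the minimum. Of the 25, 1 was lower (4%), 2 were higher (8%) and 22 were neither, beside 20.5% lower and 7.09% higher among all genes. The lower gene was Efr3b next to Pomc, at 0.344 FPKM in the Aire-KO-labelled library and 1.04 FPKM in the WT-labelled library. The higher genes were Zfp292, a zinc finger gene next to Cga, at 8.19 against 2.38 FPKM, and Far1, a fatty alcohol synthesis gene next to Pth, at 70.0 against 26.2 FPKM. With the 5 nearest on each side, 8 of 68 genes were lower and 7 higher. Around Prl lie its placental relatives, and Prl3b1, a placental lactogen 5 places away, was listed at 0 in the Aire-KO-labelled library and stood at 2.71 FPKM in the WT-labelled library.

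**Figure D4:**
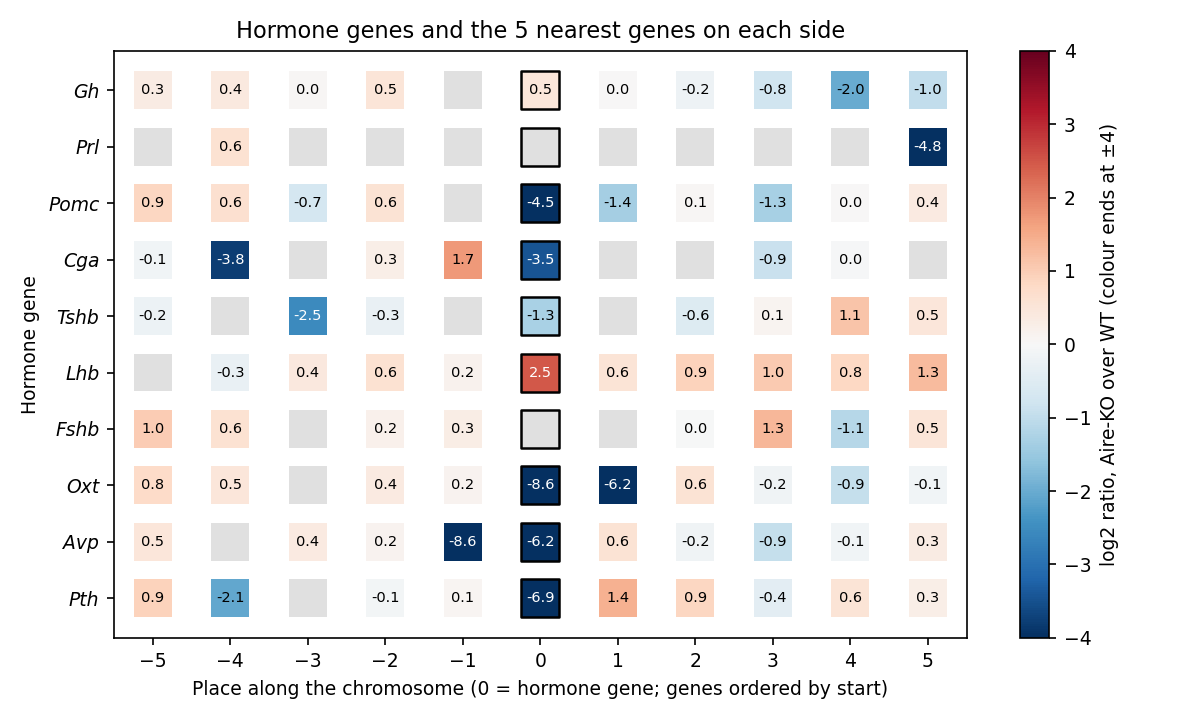
Log2 ratio of Aire-KO over WT (colour and printed value) for each hormone gene, outlined at place 0, and for the 5 nearest gene rows on each side along the chromosome. Grey squares are genes under 0.5 FPKM. Most neighbours of Oxt, Avp, Pth, Pomc and Cga lie between -1 and 1 where the hormone gene is at -3.47 or lower, and the row of Oxt holds Avp and the reverse.

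Genes of the wider hormone system were described from 9 lists, with 129 different genes, of which 81 reached the minimum. Of the 81, 47 were lower (58.0%), 4 were higher and 30 were neither. Among all genes 20.5% were lower and 7.09% higher, and at means between 0.5 and 2 FPKM 44.2% were lower. Genes that reach the minimum through the WT-labelled library alone are mostly called lower because of it, so these counts are descriptions.

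The releasing hormones and neuropeptides of the hypothalamus were mostly lower. All 20 listed genes reached the minimum, 18 were lower and none was higher, beside 20.5% lower and 7.09% higher over all genes. The median log2 ratio was -4.46, beside 0.05 over all genes. The most abundant were Tac2, the neurokinin B precursor that acts on gonadotropin release, at 0.506 FPKM in the Aire-KO-labelled library and 95.4 FPKM in the WT-labelled library, and galanin (Gal) at 0.663 against 77.5 FPKM. Somatostatin (Sst), the brake on growth hormone release, was listed at 0 in the Aire-KO-labelled library against 52.7 FPKM in the WT-labelled library. The exceptions were Pdyn, the dynorphin precursor, at 15.2 and 16.2 FPKM in the Aire-KO-labelled and WT-labelled libraries, and Adcyap1, the PACAP precursor, at 3.36 and 4.36 FPKM.

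Among the releasing hormones that command the pituitary genes above, Trh, which acts on thyrotropes, stood at 0.0304 FPKM in the Aire-KO-labelled library and 12.5 FPKM in the WT-labelled library. Ghrh, which acts on somatotropes, stood at 1.01 against 9.19 FPKM, and Gh was neither. Crh, which acts on corticotropes, was listed at 0 against 2.80 FPKM. Gnrh1, which acts on gonadotropes, stood at 0.944 against 3.17 FPKM, and Lhb was higher. Whether releasing hormones act on these genes in mTECs was not tested.

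Pituitary and hypothalamic transcription factors were lower in part. Of 11 at the minimum among 19, 6 were lower (among them Pou1f1, Hesx1, Lhx3, Gata2 and Nr5a1), 1 was higher and 4 were neither, beside 20.5% lower and 7.09% higher over all genes, and the median log2 ratio was -2.70. The 6 lower factors had means between 0.5 and 2 FPKM, a range where 44.2% of all genes were lower and 7.65% higher. The named ones stood between 1.25 and 1.70 FPKM in the WT-labelled library, for example Lhx3, a LIM homeodomain factor of pituitary development, at 0.112 FPKM in the Aire-KO-labelled library against 1.48 FPKM. The 3 most abundant were Egr1, given above, Insm1 and Arnt2. Insm1, a zinc finger factor of neuroendocrine cells, was the higher gene, at 120.5 FPKM in the Aire-KO-labelled library and 53.4 FPKM in the WT-labelled library, and Arnt2 stood at 21.3 and 23.2 FPKM in the same order. Sim1, a factor of hypothalamic neurons named after its values were seen, had the lowest mean of the 11 and was not lower, at 0.727 and 0.409 FPKM.

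Other calcium hormones were near the shares of all genes. Of 6 at the minimum, 1 was lower, 1 higher and 4 neither, beside 20.5% lower and 7.09% higher over all genes, and the median log2 ratio was -0.47. Calcb, a gene of the calcitonin family, was higher at 516.0 FPKM in the Aire-KO-labelled library and 239.5 FPKM in the WT-labelled library. It was near the limit, with a log2 ratio of 1.11, and was no longer called once FPKM was centred on the median log2 ratio. Calca, which encodes calcitonin and the peptide CGRP, stood at 97.7 and 161.3 FPKM in the same order, and Pthlh, the relative of Pth made by many epithelia, at 15.2 and 14.6 FPKM. Calca and Calcb are close relatives, and their values are uncertain where the counting could split shared reads. The lower gene was Fgf23, the bone hormone that lowers phosphate, at 0.0510 against 3.22 FPKM. Of 4 parathyroid regulators at the minimum, 2 were lower, Gata3 among them, and Casr and Vdr, the vitamin D receptor (29.8 against 40.4 FPKM), were neither.

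Further members of the glycoprotein hormone and prolactin families numbered 28, and 10 reached the minimum, of which 6 were lower and 4 neither, beside 20.5% lower and 7.09% higher over all genes, and the median log2 ratio was -1.21. Gpha2, the alpha subunit of thyrostimulin, stood at 0.75 FPKM in the Aire-KO-labelled library and 12.9 FPKM in the WT-labelled library, and its beta subunit Gphb5 at 3.42 against 7.38 FPKM. Prl2a1, of the placental prolactin cluster, stood at 3.35 against 8.58 FPKM. Some members of that cluster are near-identical, so how the counting divided shared reads affects them.

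Few receptors reached the minimum. Of 16 receptors for the 10 hormones, 5 reached the minimum, 2 of them lower and 3 neither, beside 20.5% lower and 7.09% higher over all genes. Without a minimum 7 of the 16 were lower and 0 higher, beside 5180 lower and 1350 higher among the 23997 gene rows. The receptors added in this way were low even in the WT-labelled library, from Lhcgr at 0.160 FPKM to Pth2r at 0.644 FPKM. Ghr, the growth hormone receptor, stood at 3.87 FPKM in the Aire-KO-labelled library and 9.90 FPKM in the WT-labelled library, and Avpr2, the kidney vasopressin receptor, at 0.573 against 2.32 FPKM. Prlr (2.89 against 2.20 FPKM) and Pth1r (1.70 against 1.78 FPKM) were neither, and Fshr and Mc2r were listed at 0 in both libraries. Of 12 receptors for the releasing hormones, 6 reached the minimum, 2 lower, 2 higher and 2 neither, beside 20.5% lower and 7.09% higher over all genes. Ghrhr was lower (0.685 against 3.13 FPKM), as was Crhr1 (0.0735 against 3.05 FPKM), and the somatostatin receptor Sstr3 (5.74 against 2.45 FPKM) and Trhr2 (2.76 against 0.989 FPKM) were higher.

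Genes of the machinery that cuts and packs hormones were present in both libraries, some of them at low levels in the Aire-KO-labelled library. Of 11 prohormone processing genes at the minimum, 5 were lower, 6 neither and none higher, beside 20.5% lower and 7.09% higher over all genes, and the median log2 ratio was -0.75. Scg5, the chaperone of the convertase made by Pcsk2, was lower at 43.9 FPKM in the Aire-KO-labelled library and 104.2 FPKM in the WT-labelled library. Pam, the enzyme that amidates peptides such as oxytocin and vasopressin, stood at 68.9 and 52.3 FPKM, and Cpd, a carboxypeptidase, at 22.6 and 19.4 FPKM in the same order. Of 8 dense core granule genes 5 were lower, 3 neither and none higher, beside the same shares over all genes, with a median of -1.36. Among them Chga, the granule protein chromogranin A, was at 16.6 against 45.5 FPKM, whereas the priming factor Cadps (56.7 against 63.4 FPKM) and Ptprn2 (12.6 against 14.7 FPKM) were neither. The lowest ratios of the granule genes were those of Scg2 (0.175 against 6.08 FPKM) and Chgb (1.40 against 6.83 FPKM). Of the processing genes at the minimum, Pcsk2, given above, had the lowest ratio.

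Islet and gut hormones, the most similar set of peptides, were nearly all lower. Sst and Npy are also in the list of releasing hormones and neuropeptides, so both lists count them. Of 14 at the minimum among 16, 13 were lower, 1 was neither and none was higher, beside 20.5% lower and 7.09% higher over all genes, and the median log2 ratio was -5.25. The exception was secretin (Sct), at 60.1 FPKM in the Aire-KO-labelled library and 77.6 FPKM in the WT-labelled library. Iapp, the islet amyloid peptide, stood at 9.21 against 192.2 FPKM, and Pyy, the gut peptide of satiety, at 1.74 against 114.9 FPKM. No gene of that set was higher as Lhb was, but with 1 library per genotype the difference between the sets was not tested.

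**Figure D5:**
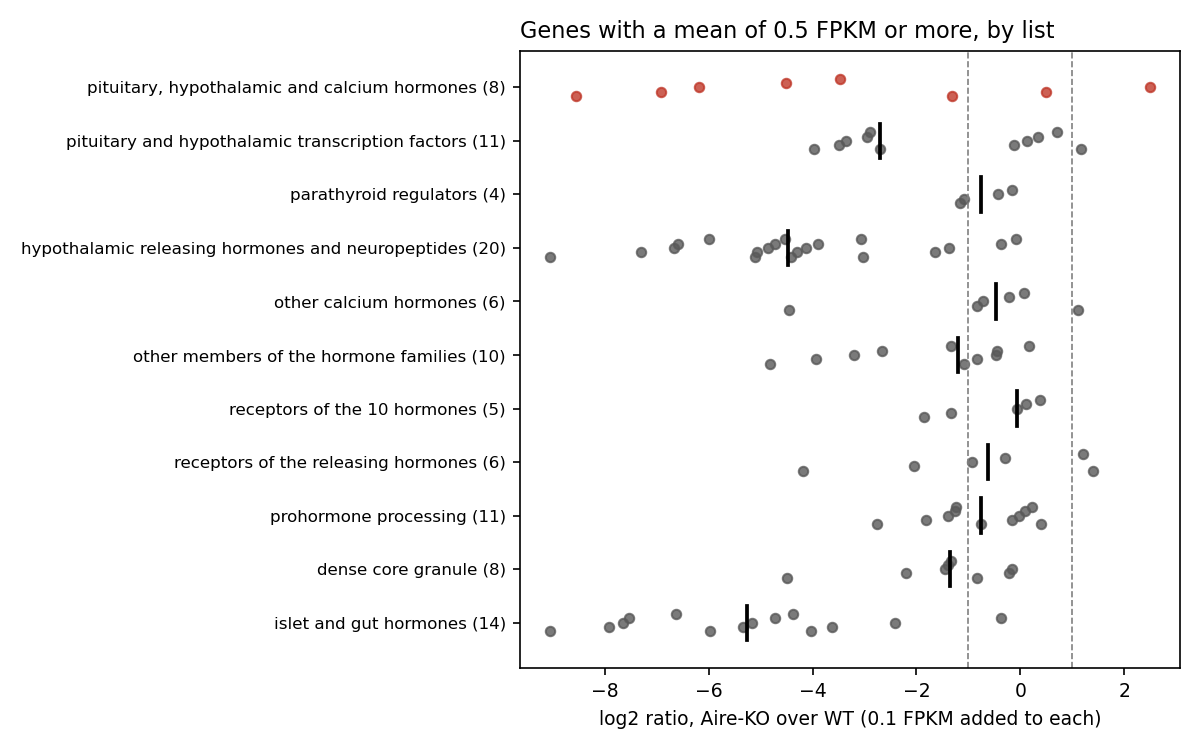
Log2 ratio of Aire-KO over WT (0.1 FPKM added to each) for each gene at 0.5 FPKM or more, by list, with the number of genes in brackets, the 8 hormone genes in red, list medians as black bars and the 2-fold limits dashed. Neuropeptides (median -4.46) and islet and gut hormones (-5.25) lie far to the left, and receptors of the hormones (-0.06) lie around 0. Sst and Npy are drawn in both of the first 2 of these lists.

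For each hormone gene at the minimum, the 3 genes nearest to it in their pair of levels are named, and their organs were not examined. Likeness was the straight-line distance in log2(FPKM + 0.1) over the 2 libraries, which is a description of levels and nothing more. It ran from 0.0105 (Ccdc33 to Gh) to 0.481 (Snora70 to Oxt). The 3 nearest to Oxt were Defb19, Obp2a and Snora70, and to Pth they were Gkn2, Dcpp2 and Mcpt4, all listed at 0 in the Aire-KO-labelled library. The nearest to Avp were Fgg, Mpo and Prss34, to Pomc Muc13, Upk3a and Spink12, and to Cga Aqp1, Klk8 and Ecm1. Scn9a, a sodium channel of pain neurons, was among the 3 nearest to Lhb, at 4.03 FPKM in the Aire-KO-labelled library and 0.816 FPKM in the WT-labelled library, with 4933436H12Rik and 2810404M03Rik. Ccdc33, Fabp7 and Creld1 lay nearest to Gh, and Lrrc36, Pkib and Slc39a8 to Tshb.

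Some markers of other cell types found in thymus were lower alongside the hormone genes. Over all genes the shares were 20.5% lower and 7.09% higher, and these lists are short. Of 7 dendritic cell and macrophage markers at the minimum 5 were lower, 2 neither and none higher. The summed level of all 8 was 474.4 FPKM in the Aire-KO-labelled library and 724.5 FPKM in the WT-labelled library. Most of that sum was Lyz2, which was neither, at 436.4 and 675.5 FPKM in the same order. The 9 thymocyte markers summed to 20.6 and 33.5 FPKM in the same order, with 2 lower and 6 neither of 8 at the minimum. The 5 fibroblast and endothelium markers summed to 17.6 and 26.6 FPKM, with 2 lower and 2 neither of 4 at the minimum. The 4 B cell markers, 1 lower and 3 neither, summed to 40.2 and 41.8 FPKM, most of it Cd79b (37.8 and 37.1 FPKM). Of the 6 neuroendocrine-like markers, 3 of 5 at the minimum were lower and 1 was higher. Their sums were 142.4 and 110.6 FPKM, of which Insm1, the higher gene, was 120.5 and 53.4 FPKM. Of 6 cortical epithelium markers 1 was lower and 5 neither, with sums of 110.3 and 94.98 FPKM. Of the 8 pituitary cell markers 5 were listed at 0 in the Aire-KO-labelled library, and their sums were 21.2 and 87.9 FPKM, and of the 4 parathyroid markers Gcm2 and Pth were at 0 there, with sums of 8.99 and 24.6 FPKM. Both of these lists hold hormone genes described above. The part of these cells in the hormone results was not tested.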

How the data were processed

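RNA was measured in 2 libraries of sorted MHC class II high mTECs, 1 labelled Aire-KO and 1 labelled WT. Reads were processed with TopHat2 and Cuffdiff on mm10, per the submitters' processing notes. The version, annotation and strand setting were not given in the sources used here. The authors deposited FPKM per gene and per RefSeq isoform, and the q-values of their comparison of these libraries. Scaling by the authors could shift all ratios together. FPKM was used as deposited. The 5 gene rows without an estimate (status HIDATA) were left out, and starts were raised by 1, since the file counts from 0.

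Depth was estimated from the values: FPKM times transcript length, less 170 bp in the Aire-KO-labelled library and 200 bp in the WT-labelled library, fell within 0.1 of whole multiples of 1 step for 78.1% and 78.8% of low values (1168 and 799). Step and offset were fitted to those same values. Lengths came from GENCODE M21 through its RefSeq links and, for hormone genes with 1 transcript, were fitted to the file's ends. Intervals are exact (Poisson for levels, conditional binomial for ratios) and cover counting error only, since fragments are not independent molecules.

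No test between groups was made. The pseudocount was 0.1 FPKM, the minimum mean 0.5 FPKM and the rule 2-fold. The hormone genes and lists were chosen with earlier results of these data known. Named genes were all hormone genes, the 3 most abundant of each list, genes that went against their list, neighbours that passed the rule, and the 3 genes of nearest levels. A few genes of the lists are not reported here by name. Others, named for a textbook role or a low ratio, and the DNA motifs were chosen after values and sequences were seen. Promoters came from RefSeq (GRCm38.p6, the same build as mm10). Python 3.11.15, pandas 2.3.3, numpy 2.4.6 and scipy 1.17.1 were used.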

Additional observations from a re-analysis of the deposited data

How the results depend on the processing

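Oxt, Avp, Pth, Pomc and Cga were lower and Lhb higher under all 8 alternatives tried. Tshb was no longer called at a pseudocount of 1 FPKM, a minimum mean of 2 FPKM or a 4-fold rule, which left 5 lower, and Prl was added without a minimum, giving 7. No ratio of a called hormone gene reversed. Over the pseudocounts and scalings, the log2 ratio of Lhb ran from 1.72 to 2.62, that of Cga from -3.63 to -3.04, and that of Oxt, listed at 0, from -11.87 to -5.26, set by the pseudocount. Centring on the median log2 ratio of genes at 10 FPKM or more, 0.17, put Gh at 0.32. It moved genes near 0 FPKM less, and Oxt, Pth and Prl, listed at 0, not at all.

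Over all genes, the number lower was 5180 without a minimum, 1804 at a minimum of 2 FPKM and 1893 at 4-fold, and the number higher was 701 at a pseudocount of 1 FPKM, 728 after centring and 100 at 4-fold. In the 9 lists, 73 of 129 genes were lower without a minimum, beside 5180 among the 23997 gene rows. At a minimum of 2 FPKM, 25 list genes were lower and 3 higher, beside 1804 and 876 over all genes. At a pseudocount of 1 FPKM, 2 of the 81 list genes were higher, beside 701 of 15906 over all genes. At 4-fold, 0 of the 81 were higher, beside 100 of the 15906. At 5 FPKM, 1 gene (Pomc) had a leading transcript that differed. No paired analysis was possible because each group has 1 library. A count of 0 allows up to about 3 fragments, 0.0389 (Fshb) to 0.164 FPKM (Avp) in the Aire-KO-labelled library. A gene at a level below that could be listed at 0.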

Other observations

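The genes that follow Lhb along chromosome 7 were, like it, above 0 in ratio. Ruvbl2, Gys1, Ftl1, Bax and Dhdh had log2 ratios of 0.56, 0.92, 1.05, 0.82 and 1.28, against a median of 0.17 over all genes that averaged at least 10 FPKM. On the other side of Lhb, Ntf5, Kcna7, Snrnp70 and Ppfia3 had 0.19, 0.61, 0.44 and -0.31. Ftl1, the ferritin light chain, stood at 1794 FPKM in the Aire-KO-labelled library and 869.1 FPKM in the WT-labelled library, and Bax, a promoter of cell death, at 279.0 against 157.8 FPKM. Ftl1 has near-identical copies, so its value is uncertain. These neighbours were chosen after their values were seen.

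Pdyn, the dynorphin precursor, was close to equal in the Aire-KO-labelled and WT-labelled libraries, at 15.2 and 16.2 FPKM, whereas its opioid relatives Penk (3.15 against 48.1 FPKM) and Pnoc (0.0191 against 1.99 FPKM) were lower in the Aire-KO-labelled library.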
